A study of Mus musculus with 2 samples.

Results

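The mRNAs described here are those whose distribution between polysomes and the lighter part of a sucrose gradient was measured on 1 array, that of NIH3T3 cells under thapsigargin. An accession was a member when it was a coding RefSeq transcript (NM_) on a non-control spot and its brightness A (log2 P and log2 FM signals, averaged) was above 5.5. This was the case for 9039 of the 18754 coding accessions on the array, which stood for 8871 gene symbols. The same rule kept 8464 accessions on the array of untreated cells, which is used below only for reference.

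NIH3T3 is an established line of mouse embryonic fibroblasts. The thapsigargin sample was treated with 10 µM of the drug for 3 h, and the control sample was untreated. Cells of both samples received cycloheximide before lysis, and the RNA of 3 preparations per condition was pooled before labelling, so that each condition is 1 pool on 1 array. Cy3 labelled the polysome fraction (P, transcripts carrying 2 or more ribosomes) and Cy5 the free plus monosome fraction (FM), and the dyes were not swapped. All values below are therefore log2 ratios of Cy3 over Cy5 (log2 P/FM) without biological replicates. No test was possible, and the only errors at hand are those between probes or spots on the array.

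Thapsigargin blocks the calcium pump of the endoplasmic reticulum (ER), which disturbs protein folding in this compartment and activates the kinase PERK. PERK phosphorylates the initiation factor eIF2α, and this lowers the supply of initiator tRNA to ribosomes, so that most mRNAs lose ribosomes. A small class of mRNAs, with Atf4 as the best known member, carries upstream open reading frames (uORFs) that allow the main coding sequence to be translated when eIF2α is phosphorylated. mRNAs of ribosomal proteins and elongation factors form another class, marked by a stretch of pyrimidines at the very 5′ end (5′ TOP mRNAs) and known for all-or-none recruitment to polysomes.

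The fibroblast identity of the RNA was checked on the thapsigargin array. All 12 fibroblast markers were well above background in both channels, with A from 5.80 (Fbn1) to 16.9 (S100a4). None of 7 epithelial and none of 5 endothelial markers was well above background. Of 6 haematopoietic markers Cd3e (A of 5.93) and Cd68 (5.71) were, and of 5 muscle markers only Des was, with an A of 4.45 that left it below the filter. Of the 43379 non-control spots 155 (0.357%) were flagged as outliers and left out, and none was saturated. The 153 negative control spots had an A of at most 4.35. In 3698 members with 2 or more probes the median SD between probes was 0.299 (95th percentile 1.06), and in 51 members with repeated spots of 1 probe the median SD between spots was 0.083. Differences between mRNAs smaller than about 0.3 are thus within the spread between probes.

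The 9039 mRNAs under thapsigargin had a median log2 P/FM of −0.26, with the 5th percentile at −2.04, the 95th at 1.15 and an SD of 1.02. A total of 3475 mRNAs (38.4%) were at 0 or above, against 68% on the control array, where the median was 0.47. The zero of this scale follows from the labelling and scaling of both channels, so that values are best read against the median of all mRNAs. mRNAs at or above 0.8 are called held here (1035 mRNAs, 11.5%), and those at or below −1.5 are called excluded (1028 mRNAs, 11.4%). The counts of each list below are to be read against these shares. On the control array the same limits gave 35.6% and 4.71%. The RNA came from whole plates, and a partial loss of polysomes in every cell cannot be told apart from a complete loss in part of the cells.

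**Figure D1:**
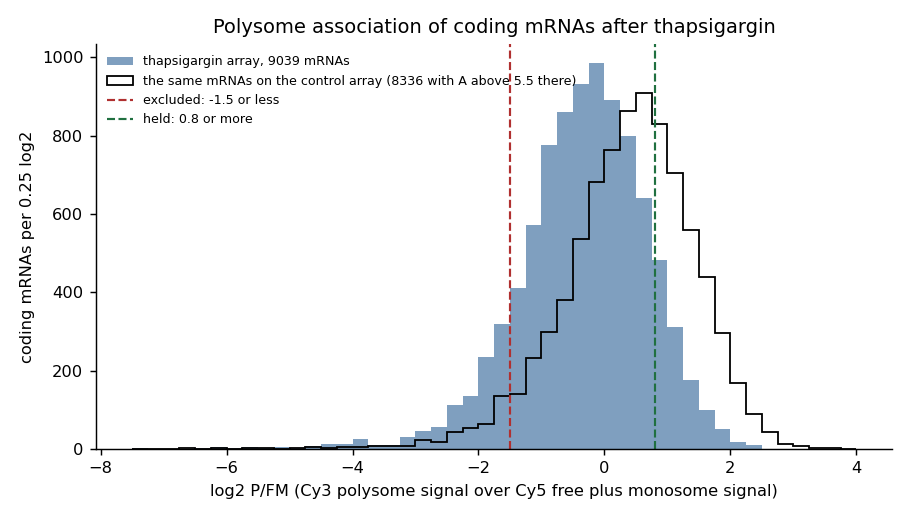
Number of coding mRNAs (y axis) per 0.25 units of log2 P/FM (x axis) on the thapsigargin array (filled, 9039 mRNAs) and for the same mRNAs on the control array (line, 8336 with A above 5.5 there). The filled distribution is shifted to the left of the line, and its lower tail reaches −7.36.

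Values on either side of the limits lay close together. Cwc25 (0.80) was just inside the held class, and Arfgap1 and Cdkn1a (0.80) were just outside. Ubl4a and Apba3 were just inside the excluded class, and Gnl1 and Fgfrl1 were just outside, all 4 within 0.01 of its limit. At the filter on brightness, Tanc2 (1.11) and Col5a3 (−1.06, SD between 2 probes 0.97) entered, while Pi4k2b (−0.53) and AW554918 (−0.72) did not, all 4 within 0.01 of the limit on A.

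Ribosomal protein mRNAs of the cytosol filled the bottom of the range. All 77 measured accessions were excluded, 46 of the large and 31 of the small subunit, and they made up 7.49% of the excluded class. Their median was −4.13, a difference of −3.86 from the median of all mRNAs. The small subunit had a median of −4.31, from −7.36 for Rps12 to −2.46 for Rps27l, and the large subunit had a median of −3.87, from −6.46 for Rplp1 to −2.27 for Rpl21. Rps12 gave a P signal of 2660 and an FM signal of 437096. Rplp1 gave 3704 in P and 327125 in FM, and Rpl12 gave 4959 and 408968. In these 3 mRNAs nearly all the measured signal was outside polysomes.

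The 12 lowest values among bright mRNAs (A above 7, every spot well above background in both channels, 1 accession per gene) were all ribosomal proteins. Rps27 (−6.12), Rps23 (−6.09), Rps7 (−6.08), Rps20 (−6.04) and Rps29 (−5.95) followed Rps12, Rplp1 (−6.46) and Rpl12 (−6.37). The remaining ones were Rpl41 (−5.79), Rps2 (−5.74, SD between 2 probes 0.82), Rpl39 (−5.72) and Rplp0 (−5.53, SD between 2 probes 0.38), the last one being a protein of the ribosomal stalk. Rpl4, a protein of the large subunit, was at −2.99 with signals of 1446 in P and 11507 in FM. The Rps12 probe lies at chr10:23505016-23505075 on the minus strand and the Rpl4 probe at chr9:64022737-64022796 on the plus strand (mm9). Ribosomal protein genes have many processed copies in the mouse genome, and the probes of 2 of the 77, Rpl12 and Rps29, are placed by the array design on another chromosome than their gene. The other 75 had a median of −4.09 and a highest value of −2.27, so that none of them left the excluded class. On the control array the family was also low, with a median of −1.96 over 75 accessions.

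The annotated 5′ ends of these genes were read from RefSeq (GRCm38.p6), which gave a start for 7144 member genes. A window of 30 bases was taken, from 10 bases before the annotated start to 20 bases from it, on the strand of the gene. A run of 8 or more C or T letters was present in this window in 23 of 58 ribosomal protein genes (39.7%), against 970 of the 7144 genes (13.6%) and 3693 of the 32851 starts in the whole table (11.2%). The share was 14.7% among held mRNAs (119 of 812) and 13.1% among excluded mRNAs without ribosomal proteins (102 of 779). Ribosomal proteins that have such a run, from over the range of the family, are given first. Then follow 2 excluded mRNAs with a run from outside the ribosomal protein lists. The last are 4 mRNAs of the held class without a run of this length. All examples were thus chosen by their run, and the shares above, not the examples, describe the classes. Whether the annotated starts are those used in these cells was not tested. Capitals mark the longest run of C and T of at least 8 letters, and the annotated start is the 11th letter.

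Rps12, −7.36, chr10:23787190-23787219, minus strand: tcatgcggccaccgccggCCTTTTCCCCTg
Rps27, −6.12, chr3:90213629-90213658, minus strand: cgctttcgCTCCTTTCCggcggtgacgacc
Rps18, −4.73, chr17:33955646-33955675, minus strand: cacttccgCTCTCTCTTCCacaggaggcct
Rpl35, −4.04, chr2:39005112-39005141, minus strand: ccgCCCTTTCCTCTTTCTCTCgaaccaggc
Rpl27a, −3.31, chr7:109519185-109519214, plus strand: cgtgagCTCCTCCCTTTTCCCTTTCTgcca
Rpl7a, −2.48, chr2:26910797-26910826, plus strand: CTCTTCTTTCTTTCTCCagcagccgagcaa
Rack1, −4.43 (SD between 2 probes 1.35), chr11:48800350-48800379, plus strand: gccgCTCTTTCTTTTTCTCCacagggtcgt
Eif3f, −3.74, chr7:108934405-108934434, plus strand: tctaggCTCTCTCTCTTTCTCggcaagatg
Ptx3, 2.50, chr3:66219877-66219906, plus strand: ccaaatccaggggaactccctcgcgctgtg
Hspa5, 2.43, chr2:34772080-34772109, plus strand: gacggcgcgctcgatactggccgagacaac
Ifrd1, 2.08, chr12:40223170-40223199, minus strand: ggtctggccaccccgccttcgctcccgcgc
Atf4, 1.83, chr15:80255174-80255203, plus strand: tcagagctttggctaggtgtcccaccccgc

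Among the ribosomal proteins printed, Rpl27a has the longest run (20 letters) but not the lowest value, and Rps12 has a run of 11. Among mRNAs at −3 or less without ribosomal proteins the share with such a run was 26.5% (13 of 49), against 13.6% of all. Single mRNAs went either way. Txnip, which was held at 2.20, has a run of 12 letters, and Rpl12, at −6.37, has none of 8 or more in this window.

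Elongation factors and other mRNAs of the TOP type behaved like the ribosomal proteins, although over a wider range. None of 22 was held and 15 were excluded, with a median of −2.67. Pabpc1, the cytosolic poly(A)-binding protein, was lowest at −5.06, followed by the elongation factor subunit Eef1b2 (−4.94) and the growth-related protein Tpt1 (−4.81). The elongation factors Eef1g, Eef1a1 and Eef2 were at −3.72, −3.62 (SD between 2 probes 0.85) and −2.78. Eef1d was highest at −0.87. The start of Eef1b2, Tpt1 and Eef2 in the table has no run of 8, while 5 of the 13 genes of this list with a start do. Vim (vimentin, −1.83), Naca (−2.23) and the initiation factor subunits Eif3e (−2.44), Eif3h (−3.14) and Eif3f (−3.74) were also excluded.

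Initiation factors were otherwise spread around the median of all mRNAs. The 52 mRNAs of initiation factors and their regulators had a median of −0.48. Of these, 2 were held (3.85%, against 11.5% of all mRNAs) and 9 excluded (17.3%, against 11.4%). The 3 lowest were the eIF3 subunits named above. The highest was Eif4ebp3 (1.88), a repressor of the cap-binding protein. Mitochondrial aminoacyl-tRNA synthetases had a median of −0.40 over 15 mRNAs, and Lars2 was lowest at −3.95.

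mRNAs of mitochondrial proteins formed the next group. Respiratory complex I (43 subunits and assembly factors) had a median of −1.35 with 16 excluded and 1 held, and complexes II to V had a median of −1.35 over 47 mRNAs with 18 excluded and 1 held. Ndufa6 was lowest in complex I (−2.64), and its assembly factor Ndufaf1 was highest (0.84). In the other complexes Cox7a2l was lowest (−3.75) and Sdhd, a membrane anchor of complex II, was highest (1.19). Import and chaperone mRNAs had a median of −1.21 with 12 of 31 excluded, from −2.85 (Timm8a1) to 1.45 (Timm29). Mitochondrial ribosomal proteins had a median of −1.01 with 21 of 80 excluded and 2 held, from −2.60 (Mrps24) to 1.25 (Mrpl57, SD between 2 probes 2.47). The shares excluded, between 26.3% and 38.7%, stand beside 11.4% of all mRNAs. On the control array the medians of these 4 lists were 1.44, 0.94, 0.32 and 1.24.

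The tubulin, actin and chaperonin lists had medians below that of all mRNAs without reaching the excluded class as groups. Their offsets were −0.40, −0.26 and −0.23, and 3 of 16, 6 of 26 and 1 of 9 members lay above the median of all mRNAs. The last 2 offsets were smaller than the spread between probes of 1 mRNA, which does not measure the error of a list median. Tubulins had a median of −0.67 (1 of 16 excluded), from Tubb5 at −1.55 to Tubb4b at 1.25. Actins, tropomyosins and other contractile genes had a median of −0.52, with 2 of 26 excluded and none held. In this list Cnn2 was lowest (−1.90) and Cnn3 highest (0.15), both of which encode calponins. Actb (β-actin) was at −0.07, with signals of 1923 in P and 2018 in FM and an SD of 0.036 over 10 spots, close to equal signals in both channels. The chaperonin subunits that fold both actin and tubulin had a median of −0.50, from Cct5 (−1.08) to Cct3 (1.15), with 1 of 9 above 0.

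In the ferritin and iron list the values split by gene. Fth1 and Ftl1, the chains of ferritin, were at −3.97 and −3.36 and were the only excluded mRNAs among 11, and Fth1 gave 4058 in P and 63610 in FM. Tfrc, the transferrin receptor, was at 0.54, and the haem-degrading enzyme Hmox1 was highest at 1.19. On the control array Fth1 and Ftl1 were at −4.60 and −3.70.

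**Figure D2:**
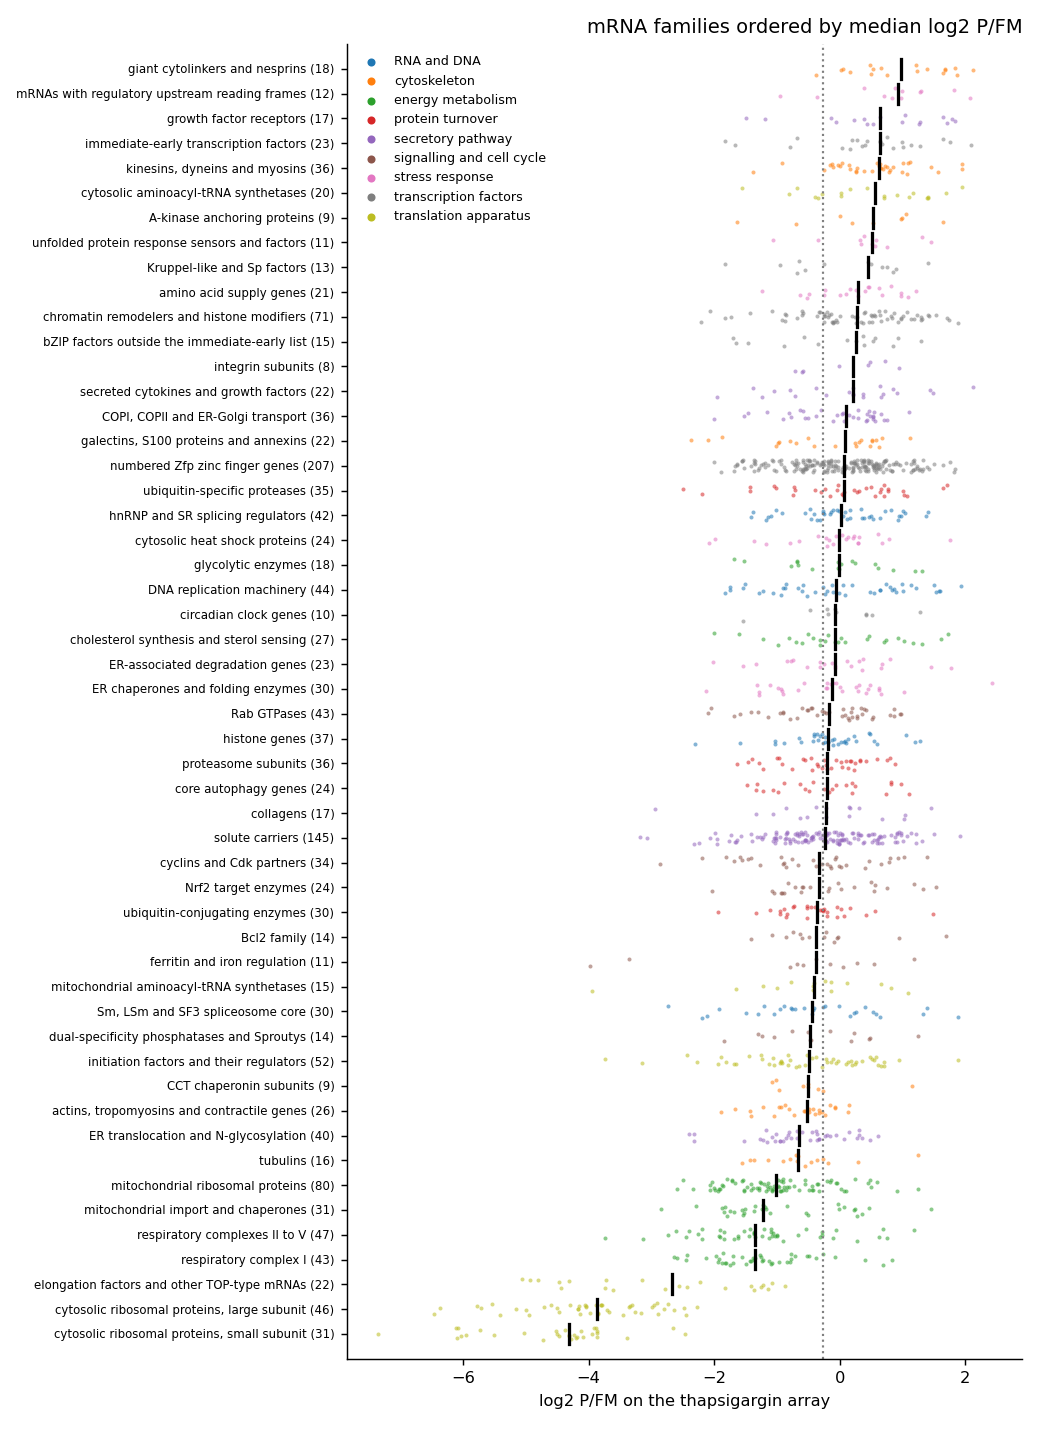
log2 P/FM on the thapsigargin array (x axis) of the members of 52 gene lists (y axis, number of members in parentheses), 1 point per mRNA, coloured by role, with a black bar at each median and a dotted line at the median of all mRNAs (−0.26). Ribosomal proteins, TOP-type mRNAs and 4 lists of mitochondrial proteins lie to the left, and giant cytolinkers, mRNAs with regulatory uORFs, growth factor receptors and immediate-early factors lie to the right.

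At the other end, 12 bright mRNAs had values between 2.12 and 2.50. The highest was Ptx3 (2.50, SD between 2 probes 0.051), a secreted pentraxin, with signals of 845 in P and 149 in FM. Nfat5, a transcription factor of the osmotic stress response, was at 2.48 (527 and 94.3), and Pou2f1, which encodes Oct-1, was at 2.44 (647 and 119). Both of these values rest on 1 probe each. Another accession of each gene fell below the filter on A and was lower. That of Nfat5 was at 0.63 (SD between 2 probes 0.12). That of Pou2f1 was at 1.21, with an FM signal not well above background. Hspa5, the ER chaperone BiP, was at 2.43, with 34645 in P and 6449 in FM, and was by far the brightest of the 12. The Hspa5 probe lies at chr2:34631630-34631689 on the plus strand and the Ptx3 probe at chr3:66029245-66029304 on the plus strand (mm9).

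The other mRNAs at this end were of mixed function. Ccdc80 (2.36) and Ccn2 (2.12) encode secreted matrix proteins, Myof (2.33, SD between 3 probes 0.42) a membrane repair protein, and Pcdh19 (2.21) a protocadherin. Txnip (2.20, SD between 2 probes 0.55) encodes a binding partner of thioredoxin. Ddx6 (2.18) and Tnrc6b (2.15) both encode proteins of mRNA silencing, and Ahnak (2.12, SD between 4 probes 0.46) encodes a giant scaffold protein. The 12 values differed by 0.38 in all, which is of the size of the spread between probes, and their order is not resolved.

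Stress response lists had medians above that of all mRNAs, but by different amounts. The offsets were 1.19 for mRNAs with regulatory uORFs, 0.78 for the unfolded protein response and 0.55 for amino acid supply. Those of heat shock proteins (0.26, 17 of 24 above the median of all mRNAs), ER-associated degradation (0.18, 14 of 23) and ER chaperones (0.14, 19 of 30) were small. On the control array the offsets of these lists, in the same order, were −0.73, −0.05, 0.43, 0.43, 0.21 and 0.65. Of 12 mRNAs known for regulatory uORFs, 8 were held and none excluded (median 0.93, percentage held 66.7% against 11.5% of all mRNAs). Ifrd1, a regulator of transcription, was highest at 2.08. Atf4, the transcription factor of the integrated stress response, was at 1.83 with signals of 3673 in P and 1035 in FM. Ppp1r15b (1.30) and Ppp1r15a (1.29), which encode the regulatory subunits of the eIF2α phosphatase, were nearly equal. Atf5 (0.88) and Ddit3 (0.84), both factors downstream of Atf4, were just above the limit of 0.8. Cebpb (−0.95) and Mdm2 (−0.35) were below 0, so that not every member of the list was on the polysome side.

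The sensors and factors of the unfolded protein response had a median of 0.51, with 2 of 11 held. Trib3 (1.46) and Creb3 (1.32) were the held ones, the sensor kinases Eif2ak3 (PERK) and Ern1 were at 0.57 and 0.33, Xbp1 was at 0.51, and Atf6b was lowest at −1.06. The ER chaperones as a list did not follow Hspa5. Their median was −0.12 over 30 mRNAs, 2 of them held and 1 excluded. Hspa13 (1.03) was the other held chaperone, Hsp90b1 (0.46) and Calr (0.43) were lower, and Erp29 was at −2.12. ER-associated degradation mRNAs had a median of −0.08 (23 mRNAs, 3 held, 2 excluded), from Ubxn6 (−2.02) to the extraction ATPase Vcp (1.78).

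Amino acid supply mRNAs had a median of 0.29, with 5 of 21 held (23.8%, against 11.5% of all mRNAs) and none excluded. The transporters Slc38a2 (1.22) and Slc7a1 (0.98, SD between 2 probes 1.22), the proline enzyme Aldh18a1 (1.08) and the serine enzyme Shmt2 (0.98) were held, as was Slc1a4 (0.81), and Mthfd2 was lowest at −1.23. Cytosolic aminoacyl-tRNA synthetases, which charge tRNAs, had a higher median of 0.57 with 8 of 20 held (40%) and 1 excluded. Rars (1.95), Lars (1.70), Iars (1.41), Farsb (1.41) and Aars (1.40, SD between 2 probes 0.36) were the highest, and Qars (−1.55) was the lowest. Cytosolic heat shock proteins had a median of −0.01 (1 of 24 held), from their regulator Hsf1 (−2.07) to the co-chaperone Bag3 (1.77).

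Among transcription factors, the immediate-early group had a median of 0.64, with 8 of 23 held (34.8%, against 11.5% of all mRNAs) and 2 excluded. Ier5 (2.09), Egr2 (1.75, SD 0.090 over 10 spots), Mafk (1.65), Myc (1.28, SD between 3 probes 0.37), Fosl2 (1.14, SD between 2 probes 1.21), Fosb (1.01), Atf3 (1.00) and Klf6 (0.86) were held. Egr1 (0.40), Fos (0.35) and Jun (0.65) were between the limits. Klf2 (−1.83, SD between 2 probes 2.88) and Jund (−1.66) were excluded. On the control array the 21 mRNAs of this list that passed the filter had a median of −0.60 and none was held. Atf3 was not among them, with an A of 1.16 there. Ptgs2, the inducible cyclooxygenase, was at 1.67 (SD between 2 probes 0.24), with an FM signal of 449 and a P signal of 1432.

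Other groups of regulators were closer to the median. Krüppel-like and Sp factors (13 mRNAs, median 0.45) ranged from Klf2 to Sp1 (1.42). bZIP factors outside the immediate-early list (15 mRNAs, median 0.26) ranged from Crebzf (−1.69) to Bach1 (1.30), with Creb1 at 0.54. Chromatin remodelers and histone modifiers had 20 of 71 held (28.2%, against 11.5% of all mRNAs) and 4 excluded, with a median of 0.29. They ranged from the histone methyltransferase Kmt5a (−2.20) to Brwd1 (1.89). The zinc finger genes numbered Zfp had a median of 0.07, from Zfp511 (−2.01) to Zfp275 (1.85). Of 207, 32 were held (15.5%, against 11.5% of all mRNAs) and 10 excluded (4.83%, against 11.4%). Clock genes had a median of −0.07 over 10 mRNAs, with Per1 (1.28) as the held one and Csnk1e (−1.53) as the excluded one.

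The list of giant cytolinkers and nesprins, which tie filaments to membranes and to each other, also holds other giant proteins, such as Mycbp2 and Herc1. It had the highest median of the 52 lists, 0.98, with 9 of 18 held (50%, against 11.5% of all mRNAs) and none excluded. It was also the dimmest of the 52 lists, with a median A of 6.79 against 8.17 of all mRNAs. Ahnak (2.12), Mycbp2 (1.87), Herc1 (1.85, SD between 2 probes 1.06), Macf1 (1.68) and a Plec transcript (1.68) were the highest, and the lowest value, −0.37, was that of a second Ahnak transcript whose 2 probes were far apart (SD 2.64). Kinesins, dyneins and myosins, the motors of the cytoskeleton, had a median of 0.63 with 11 of 36 held (30.6%) and none excluded. They ranged from Kif1c (−1.38) to Kif4 and Myh10 (both 1.95). Growth factor receptors had a median of 0.65 with 8 of 17 held (47.1%). Among these were Igf1r (1.85) and Bmpr2 (1.71), and also Ddr2 (1.78) and Lrp1 (1.65), which are not growth factor receptors in the strict sense. Fgfrl1 was the lowest receptor, just above the excluded class. A-kinase anchoring proteins had a median of 0.54 (4 of 9 held, 44.4%), from Akap7 (−1.64) to Pakap (1.64).

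In the secretory pathway, secreted cytokines and growth factors had 5 of 22 held (22.7%, against 11.5% of all mRNAs), with a median of 0.21. They ranged from Vegfb (−1.96) to Ccn2 (2.12). Integrins had a median of 0.22 (8 mRNAs, Itgb4 −0.71 to Itgb1 0.94). COPI, COPII and ER-Golgi transport had a median of 0.11 (36 mRNAs), from Tmed3 (−2.00) to Sec24c (1.11). Collagens (17 mRNAs, median −0.22) ranged from Col4a4 (−2.95) to Col5a2 (1.46), and solute carriers (145 mRNAs, median −0.23) from Slc25a39 (−3.19) to Slc6a6 (1.91), the taurine transporter. ER translocation and N-glycosylation was the low list of this pathway. Its median was −0.64, none of 40 was held and 4 were excluded, from Ssr4 (−2.40) to Srp54a (0.61).

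mRNAs of RNA and DNA metabolism were heterogeneous. DNA replication machinery had 13 of 44 held (29.5%, against 11.5% of all mRNAs) and 5 excluded (11.4%, the share of all mRNAs), with a median of −0.06. Cdc45 (1.94), Fen1 (1.60), Lig1 (1.59, signals of 5692 in P and 1888 in FM) and Cdc6 (1.54) were the highest, and the clamp loader subunits Rfc5 (−1.83) and Rfc2 (−1.75) were the lowest. hnRNP and SR splicing regulators had 8 of 42 held (19%) and none excluded (median 0.03), from Hnrnpa1 (−1.42) to Hnrnph2 (1.41). The spliceosome core had a median of −0.43 over 30 mRNAs, from Lsm5 (−2.73) to Sf3b1 (1.89), and Snrpb was at 1.33. Histone genes had a median of −0.19 (37 mRNAs, 3 held, 2 excluded), from H2az2 (−2.31) to H1f1 (1.29).

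Protein turnover and central metabolism were near the median. Proteasome subunits (36 mRNAs, median −0.21) ranged from Psmb9 (−1.64) to Psmd13 (0.89), ubiquitin-specific proteases (35, median 0.07) from Usp21 (−2.49) to Usp9x (1.71), and ubiquitin-conjugating enzymes (30, median −0.35) from Ube2q2 (−1.94) to Ube2h (1.49). Core autophagy genes (24, median −0.21) ranged from Atg4d (−1.47) to the autophagy receptor Sqstm1 (1.11). Glycolytic enzymes (18, median −0.01) ranged from Gpi1 (−1.68) to the glucose transporter Slc2a1 (1.32). Cholesterol synthesis and sterol sensing had 6 of 27 held (22.2%, against 11.5% of all mRNAs) and a median of −0.07. The synthase Hmgcs1 (1.73) was highest and the sterol sensor Scap (−2.00) lowest.

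In the signalling lists, cyclins and Cdk partners had 6 of 34 excluded (17.6%, against 11.4% of all mRNAs) and 3 held (8.82%). Their median was −0.33, from Ccng2 (−2.86) to Cdk12 (1.40). The Bcl2 family (14, median −0.37) ranged from the death effector Bax (−1.41) to a transcript of the survival gene Bcl2 (1.69). Rab GTPases (43, median −0.16) ranged from Rab28 (−2.09) to Rab8a (0.98), and dual-specificity phosphatases and Sproutys (14, median −0.46) from Dusp12 (−1.84) to Dusp6 (1.26). Nrf2 target enzymes (24, median −0.33) ranged from Sod1 (−2.03) to Prdx1 (1.54), and galectins, S100 proteins and annexins (22, median 0.08) from Lgals1 (−2.36) to Anxa1 (1.12). Over all 52 lists, which hold 1702 of the members, 19 medians were above 0 and 33 below.

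Held and excluded mRNAs differed in the median place of the probe on the transcript. The files give this position in bases from the 5′ end. It fitted the genomic order of 5414 of 5415 pairs of probes of the same transcript. The position is a lower bound of transcript length. The median position was 3319 for held and 1091.5 for excluded mRNAs, against 2077 for all, but held mRNAs with probes near the 5′ end also existed, such as Ddit3 (base 288), Snrpb (base 289) and Atf4 (base 832). The median log2 P/FM went from −1.14 in 580 mRNAs with the probe in the first 500 bases to 0.69 in 483 mRNAs with the probe beyond base 6000. In the first group 2.59% were held and 37.9% excluded, and in the last 43.3% were held and 0.207% (1 mRNA) excluded. Across 9037 mRNAs Spearman's rho was 0.413 (Pearson's r with log2 position 0.432), given as a description, since mRNAs on an array are not independent replicates.

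The relation had the same sign in every band of brightness. The rho was 0.364 for A of 5.5 to 7, 0.375 for 7 to 9, 0.373 for 9 to 11 and 0.466 above 11, and without ribosomal proteins it was 0.401. Brightness itself had a rho of −0.176 with log2 P/FM. On the control array the rho with position was −0.304 over 8462 mRNAs, and the median went from 0.54 in the first 500 bases, through 0.99 between 500 and 1000, to −0.30 beyond base 6000. In 2427 mRNAs with 2 probes on the thapsigargin array, the probe farther from the 5′ end gave the higher value in 1233 (50.8%), with a median difference of 0.010. A trend of this kind was not seen between probes of the same transcript. Such probes measure the same mRNA, and what the trend between transcripts rests on was not tested.

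**Figure D3:**
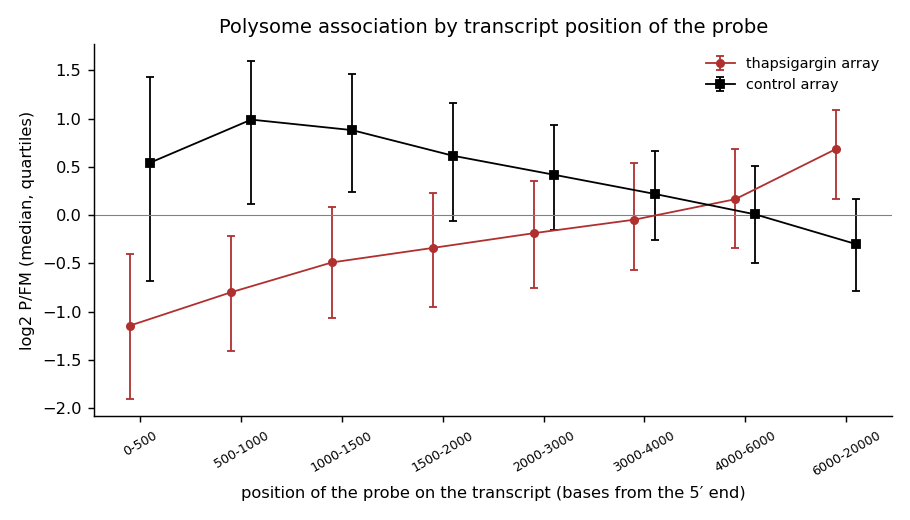
Median log2 P/FM (y axis, bars from the lower to the upper quartile over mRNAs) by position of the probe on the transcript in bases from the 5′ end (x axis, 8 bins) on the thapsigargin array (circles) and on the control array (squares). The thapsigargin medians rise from −1.14 to 0.69 over the bins, while the control medians fall from 0.99 in the second bin to −0.30 in the last.

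The families were set against mRNAs of the same position bin. Ribosomal proteins stayed far below, at medians of −2.98 (large subunit) and −3.36 (small subunit) relative to their bins, and the TOP-type list stayed at −2.33. mRNAs with regulatory uORFs were 0.98 above their bins, immediate-early factors 0.90, aminoacyl-tRNA synthetases 0.84 and amino acid supply 0.61. By contrast, the offset of complex I was −0.42 by bin and −1.08 against all mRNAs, that of mitochondrial ribosomal proteins was −0.17 and −0.75, that of growth factor receptors was 0.36 and 0.91, and that of chromatin genes was 0.07 and 0.55. The giant cytolinkers had 0.63 by bin and 1.25 against all. Histone genes, with short transcripts, were 0.91 above their bins and 0.08 above all mRNAs. In some lists the offset changed sign. That of actins, tropomyosins and contractile genes was 0.14 by bin and −0.26 against all mRNAs, and that of ER-associated degradation was −0.03 and 0.18.

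**Figure D4:**
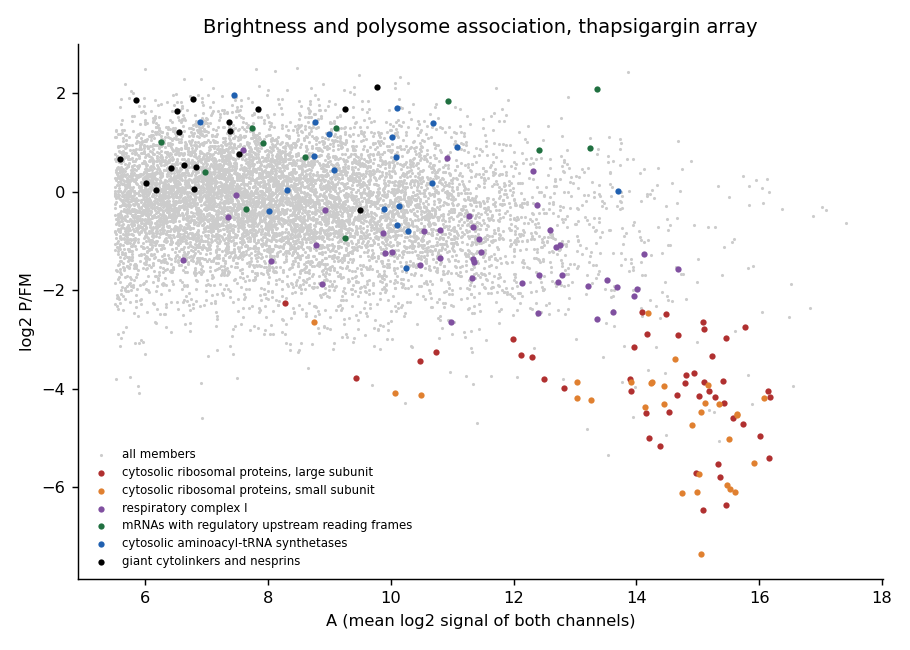
log2 P/FM (y axis) against A, the mean log2 signal of both channels (x axis), for all 9039 mRNAs (grey) and 6 lists (colours). Ribosomal proteins lie below −2 and, apart from a few, at an A above 12. mRNAs with regulatory uORFs and aminoacyl-tRNA synthetases spread over the range of A. Giant cytolinkers lie mostly at low A (median 6.79, against 8.17 of all mRNAs).

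Transcripts of the same gene could differ. In 166 genes with 2 or more member accessions the median range between accessions was 0.43, and 29 genes had accessions apart by 1 or more. Brwd1 was at 1.89 and −0.85, Bcor at 0.82 and −1.30, and Bcl2 at 1.69 and −0.22, each time with the higher value on the accession with the farther probe. The long Ahnak transcript was at 2.12 (4 probes, farthest at base 17962), while the short one, at −0.37, is unresolved, as its 2 probes (bases 84 and 822) were apart by an SD of 2.64. Among 164 genes with exactly 2 accessions and different probe positions, the farther one was higher in 99. Probes in sequence shared by several transcripts were not told apart from those specific to 1 transcript.

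The summed signal of the members gives the weight of each family in the fractions. The 77 ribosomal protein accessions held 41.0% of the summed FM signal and 5.22% of the summed P signal. TOP-type mRNAs held 5.57% and 1.22%, and the ferritin and iron list 0.360% and 0.116%. In the opposite direction, mRNAs with regulatory uORFs held 0.488% of P and 0.0682% of FM, ER chaperones 1.40% and 0.512%, the unfolded protein response list 0.152% and 0.0326%, and histone genes 11.6% and 4.6%. Of the 52 lists, 45 had a larger share of P than of FM and 7 had the reverse. The mean signal per mRNA was 1100 in P and 3167 in FM. The ribosomal proteins take a large part of the FM total, which raises the ratio of P to FM shares of every other list. With ribosomal proteins left out of both totals, 38 of 50 lists had the larger share of P and 12 the larger share of FM.

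**Figure D5:**
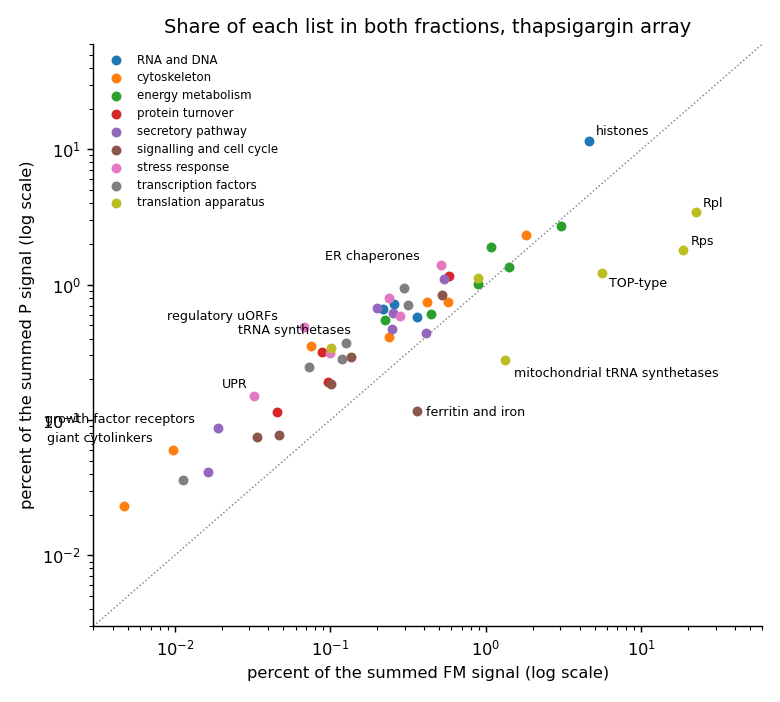
Percentage of the summed P signal (y axis, log scale) against percentage of the summed FM signal (x axis, log scale) for the 52 lists on the thapsigargin array, coloured by role, with a dotted line at equal shares. Ribosomal proteins of both subunits and TOP-type mRNAs lie below the line, and histones, ER chaperones and mRNAs with regulatory uORFs lie above it.

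Held and excluded mRNAs were then looked up on the control array. Of the 1035 held mRNAs 925 were bright enough there, and their median was 0.32. A total of 284 (30.7%) were at or above 0.8 on both arrays, 324 (35.0%) were at or below 0 in untreated cells, and 20 were at or below −1.5 there. Atf4 (−1.60), Ddit3 (−1.74), Egr2 (−2.07) and Ptgs2 (−1.97) were among these 20. Of all mRNAs on the control array 35.6% were at or above 0.8, 32% at or below 0 and 4.71% at or below −1.5. Of the 1028 excluded mRNAs 985 were bright enough, and their median was −0.40. A total of 212 (21.5%, against 4.71% of all mRNAs) were excluded on both arrays, and 137 (13.9%, against 35.6% of all mRNAs) were at or above 0.8 in untreated cells, for example Ndufb9 (2.04 against −2.59), Sod1 (2.02 against −2.03) and Lgals1 (2.20 against −2.36). With 1 array per condition and no dye swap, dye bias of single probes and the difference between pools cannot be told apart from these values.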

How the data were processed

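NIH3T3 cells were profiled on 2 Agilent 44K two-colour arrays, 1 per condition. Per the file headers and labels, images were read with Feature Extraction (10.7.1.1 in the header, 10.7.1 in the labels). The authors pooled RNA of 3 preparations, labelled P with Cy3 and FM with Cy5 and kept the proportion of both. The deposited scanner files hold intensity per spot and the deposited value table holds log2 ratios, used as an alternative. No column of another series was found (0).

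Here the background median was subtracted from the mean intensity of each spot, and values below 0.5 were set to 0.5. The log2 values were averaged over the spots of a probe, then over the probes of an accession. Accessions of the same gene were kept apart, and A above 5.5 was required. No further normalization was applied. Depth is not defined for arrays, and the number of arrays (1 per group) limits the precision. Names were updated through RefSeq for 8940 members (98.9%). Probe coordinates are mm9. R 4.3.3, limma 3.58.1 (loess, normexp), Python 3.11.15, pandas 2.3.3 and scipy 1.17.1 were used, and the averaging was tested on simulated spots.

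The 52 gene lists and the members were chosen with earlier results of these data known. Named mRNAs were the 12 highest and 12 lowest bright ones, the ends of each list, those the study names and those next to a limit. A few others were named after their values were seen, and a few that the rule covers are not reported here. Protein features were planned and not run, as no protein sequences were used here.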

Additional observations from a re-analysis of the deposited data

Results flagged for a closer look

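The median had opposite signs on the thapsigargin and control arrays in 38 of 52 lists, and in 7 of them it was at least 0.5 from 0 on both arrays. With 1 array per condition none of these differences was tested. Immediate-early transcription factors had a median log2 P/FM of 0.64 under thapsigargin and −0.60 in the control, and A-kinase anchoring proteins had 0.54 and −0.69. In the opposite direction, respiratory complex I had −1.35 and 1.44, respiratory complexes II to V had −1.35 and 0.94, mitochondrial ribosomal proteins had −1.01 and 1.24, actins, tropomyosins and contractile genes had −0.52 and 1.40, and tubulins had −0.67 and 0.90. The median of all mRNAs was −0.26 and 0.47 on the same arrays. The median probe position on the transcript was base 470 for complex I and 3142 for A-kinase anchoring proteins. For immediate-early factors it was base 2160, close to that of all mRNAs (2077). The part of probe position in the differences between the arrays was not tested.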

How the results depend on the processing

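The number of members, the overall median, the held and excluded counts, the list medians and the list shares were recomputed under 16 alternatives, 1 of them (leaving out ribosomal proteins) chosen after seeing the data. The position trend, the transcript starts, the overlap with the control array and the differences between accessions were not recomputed. The median of −0.26 became 0.046 with the processed signals of Feature Extraction and 0.03 after loess, so that its sign follows the scaling. The 9039 members became 18752 with normexp or without a filter on A, and 18130 without background subtraction. The 1035 held mRNAs became 612 with normexp, 589 without background subtraction, 2529 with processed signals, 1761 after loess, 1683 after centring on the median, 1776 without a filter on A and 1862 when each probe counted by itself. The 1028 excluded mRNAs became 605 after loess and 3575 without a filter on A. The share of P relative to FM turned from above 1 to a log2 ratio of −0.0025 for Krüppel-like and Sp factors with each probe by itself, and to −0.020 for the spliceosome core without ribosomal proteins. Lists that moved by more than the spread between probes (0.299) were counted. The offset from the median of all mRNAs moved so in at most 14 of 52 lists under any alternative. The log2 ratio of shares moved so in 40 of 52 with processed signals, in 25 with loess and in all 50 without ribosomal proteins. The 19 lists whose median lay 0.5 or more from that of all mRNAs kept their side under each alternative that left them members. The causes of these differences were not tested. No paired analysis was possible because each group has 1 array. The limits of 0.8 and −1.5 therefore count different numbers of mRNAs under different scalings, and dim mRNAs near background are the least certain.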

Other observations

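Several gene groups outside the lists above were looked up after their members had been seen among the extreme values, so that their counts are descriptions. Ribosome biogenesis factors, which assemble ribosomes in the nucleolus, ranged from Nol12 (−1.60) to Utp25 (2.18). Of 62 mRNAs, 12 were held (19.4%, against 11.5% of all mRNAs) and 2 excluded, with a median log2 P/FM of 0.29. This stands beside the median of −4.13 for the ribosomal proteins themselves on the same array. RNA polymerase subunits had 8 of 27 excluded (against 11.4% of all mRNAs) and 3 held (11.1%, against 11.5%), with a median of −0.76. The largest subunit of RNA polymerase I, Polr1a, was at 2.10 and Polr2m at −2.35.

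Argonaute and TNRC6 proteins, which carry out silencing by microRNAs, had 3 of 5 held (60%, against 11.5% of all mRNAs). Their median was 0.87, from Ago1 (−0.12) to Tnrc6b (2.15). Protocadherins had 5 of 9 accessions held (55.6%, against 11.5%) and 1 excluded, Pcdh1 at −2.52, and Pcdh10 and Pcdh19 each count as 2 of the 9. HECT ubiquitin ligases and related large ligases had 10 of 23 held (43.5%, against 11.5%) and a median of 0.57, from Wwp1 (−2.09) to Nedd4 (1.86). V-type ATPase subunits (15, median −0.19) ranged from Atp6v1f (−1.92) to Atp6v1a (1.92), and nuclear pore proteins (20, median 0.12) from Nup88 (−0.94) to Ranbp2 (1.60).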
